A study of Mus musculus with 45 samples.

Results

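Erythropoietin receptor signalling is described here through 9 genes: the receptor Epor, its kinase Jak2, the transcription factors Stat5a and Stat5b, the feedback inhibitors Cish, Socs2 and Socs3, and the target genes Pim1 and Bcl2l1. The genes were chosen by symbol, and all 9 were present among the 13449 genes of the deposited table. Poly(A) RNA was sequenced from mouse fetal liver at E15.5, in 45 libraries that form 16 groups by genotype, cell type and cell fraction. The 4 genotypes were Rpl5flox/+ and Rps19flox/+, which carried 1 floxed copy of a ribosomal protein gene without Cre and served as controls, and VavCre Rpl5flox/+ and VavCre Rps19flox/+. Kit+ cells were captured with magnetic beads, and Ter119+ cells were captured from what remained. Each lysate, made after 15 min in 25 µg/mL emetine, gave a cytoplasm library and a polysome library from a sucrose gradient. VavCre is known to act throughout the haematopoietic compartment, and deletion was not measured by lineage here. The livers were pooled by genotype, so each library is 1 pool, and the p-values measure the spread between pools. Of the 16 groups, 14 held 3 libraries, while Rpl5flox/+ Ter119+ polysome held 2 and VavCre Rpl5flox/+ Kit+ polysome held 1.

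Erythropoietin binds its receptor on erythroid progenitors and activates the attached kinase JAK2. JAK2 phosphorylates the receptor, and STAT5A and STAT5B dock there, are phosphorylated in turn and move to the nucleus. STAT5 raises transcription of genes for survival, such as Bcl2l1, which encodes BCL-XL, and of genes that damp the signal, such as Cish, Socs2 and Socs3. In the fetal liver this pathway sustains the late progenitors and early erythroblasts, and the need for the receptor declines as cells mature. Only mRNA was measured, and the phosphorylation steps were not.

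Promoter sequences from RefSeq on the GRCm38.p6 build are shown for 3 members, since they hold the letters that the pathway's transcription factor, or the erythroid factor GATA1, is known to prefer. Promoters of 300 bases, 250 before and 50 after the start site in that table, were found for 8 of the 9 members, 13 promoters in all. Socs2 was not matched. The letters TTCNNNGAA (both strands, overlaps allowed), the core of a STAT5 site, occurred in 1 promoter each of 2 members, Cish and Socs3. They occurred in 8.3% of 32851 promoters of the same length. Capitals mark those letters in the Cish stretch at chr9:107296579-107296678 (plus strand) and the Socs3 stretch at chr11:117969501-117969530 (minus strand). In the Epor stretch at chr9:21963577-21963676 (minus strand), capitals mark TTATCT, the reverse complement of the GATA letters AGATAA.
Cish: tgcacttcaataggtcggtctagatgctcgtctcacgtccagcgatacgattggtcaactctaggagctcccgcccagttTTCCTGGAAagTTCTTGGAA
Socs3: gaaaccagccTTCTTAGAAgggaggggggg
Epor: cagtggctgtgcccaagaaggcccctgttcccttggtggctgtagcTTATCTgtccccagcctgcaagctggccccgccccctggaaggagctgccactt
Cish held 2 matches, which start at base 1 and base 12 of the gene, and Socs3 held 1, which starts at base -154. For Socs3 that base is counted from the table's start site at 117969366, which lies inside the annotated gene, so the match lies within the gene and not before it. AGATAA also occurred in 1 of the Bcl2l1 promoters, and in 11.2% of all promoters. These are matches of letters, and binding was not measured.

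The genes lie at chr9:21958897-21963576 (Epor), chr19:29251803-29313095 (Jak2), chr11:100859351-100885169 (Stat5a), chr11:100780731-100859004 (Stat5b), chr9:107296659-107302784 (Cish), chr10:95383903-95417321 (Socs2), chr11:117966079-117970336 (Socs3), chr17:29490785-29496111 (Pim1) and chr2:152758732-152833803 (Bcl2l1) on the mm10 build. Stat5a and Stat5b are neighbouring, closely related copies, so the division of reads between them may be uncertain, which was not tested. The annotation of Bcl2l1 overlaps Cox4i2, which reached at most 78.2 normalized counts in any cytoplasm library. Pim1 and Socs2 each overlap a long non-coding RNA gene, and whether strand was used in counting is not given in the sources used here.

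Cytoplasm libraries held 22.9 to 123 M reads, and polysome libraries 1.01 to 39.8 M, with 4 polysome libraries under 2 M. In the cytoplasm no member value rested on 0 reads, against 14 of 36 values in those 4 libraries and 13 of 153 in the other polysome libraries. The sorts differed as labelled: Kit stood at 1382 to 1971 normalized counts in Kit+ control cytoplasm and at 3.54 to 83.4 in Ter119+. In the VavCre Ter119+ cytoplasm libraries Kit reached 230.1 to 851.5, above the Ter119+ controls. Rpl5 was lower in VavCre Rpl5flox/+ Kit+ cytoplasm (530.7 ± 81.3 against 1046 ± 100 normalized counts, SD, n = 3), and Rps19 in VavCre Rps19flox/+ Kit+ cytoplasm (12939 ± 1409 against 18037 ± 1985). Rpl5 was lower in VavCre Rps19flox/+ Kit+ cytoplasm as well (643 ± 135 against 964.6 ± 89.6, limma adjusted p = 0.00476). Its fall in Kit+ cells was therefore not particular to the Rpl5 line. Rps19 in VavCre Rps19flox/+ Ter119+ cytoplasm did not pass the test (limma adjusted p = 0.302). On the polysomes of that label it was lower in every library, at 15196 ± 847 against 31336 ± 3350 (limma adjusted p = 0.0406). The same held on VavCre Rps19flox/+ Kit+ polysomes, at 25348 ± 4092 against 46250 ± 7465 (limma adjusted p = 0.0222). In the controls, Rpl5 was 2.72-fold lower in Ter119+ than in Kit+ cytoplasm. It went against the label in the libraries labelled VavCre Rpl5flox/+ Ter119+, at 499.9 ± 47.0 against 368.3 ± 83.6 in the cytoplasm (limma adjusted p = 0.0278). These cytoplasm groups overlapped. On the polysomes of this label every library lay above the 2 controls, but Rpl5 did not pass (limma adjusted p = 0.096). It stood there at 2430 ± 3382 against 168.1 ± 81.8, with an SD above the mean in the VavCre group. Every direction given for those libraries rests on their labels. Cdkn1a, a p53 target that halts the cell cycle, was 37.3-fold, 66.8-fold, 58.6-fold and 93.1-fold higher in the VavCre groups of Rpl5 Kit+, Rps19 Kit+, Rpl5 Ter119+ and Rps19 Ter119+ cytoplasm.

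Without Cre, the receptor, its kinase, 2 of the 3 inhibitors and both target genes were higher in the Ter119+ cytoplasm than in the Kit+ cytoplasm, while both STAT5 genes were lower. The largest difference was that of Bcl2l1, at 94.3-fold, and Socs2 did not pass the test. In all, 8 of 9 members passed (6 higher and 2 lower), against 78.5% of 10867 genes tested (35.8% higher and 42.7% lower), so a difference between the cell types was the rule in this comparison. Libraries of the cell types did not overlap for those 8 members, against 60.3% of genes. The median change of the members was 1.48 on the log2 scale, against -0.13 over all genes. A log2 change here is a difference of deposited variance-stabilised values, which understates the change of low genes, and folds are ratios of mean normalized counts.

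Epor stood at 2104 to 2611 normalized counts (median 2424) in the 6 Kit+ control libraries and at 5875 to 7375 (median 6806) in the 6 Ter119+ libraries. The groups did not overlap, and the difference was 2.8-fold (log2 1.48 ± 0.08, SE). Jak2 stood at 378 to 577.9 (median 426.3) and 796.4 to 1720 (median 1366), without overlap and 2.89-fold higher in Ter119+. Stat5a was lower in every Ter119+ library, at 69.3 to 126.4 (median 89.6) against 583.5 to 722.7 (median 680.5), which is 7.14-fold. Stat5b was 2.15-fold lower, at 404.6 to 609.5 (median 544.6) against 1018 to 1239 (median 1109). Both STAT5 genes therefore ran opposite to the receptor across the control cell types.

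Among the inhibitors, Cish, which binds the phosphorylated receptor, stood at 29.1 to 53.3 (median 42.8) in Kit+ and 931.3 to 1015 (median 938.5) in Ter119+ cytoplasm, a 22.1-fold difference. Socs3, which inhibits JAK2, stood at 6.72 to 35.7 (median 14.7) and 510 to 924.7 (median 766.3), a 43.6-fold difference. Neither pair of groups overlapped. Socs2, also an inhibitor of cytokine receptors, stayed low, at 32.3 to 61.4 and 45.5 to 70.7, with overlapping groups (log2 0.14, limma adjusted p = 0.394). Pim1, a survival kinase, stood at 796.2 to 1205 (median 1037) and 16455 to 37950 (median 20740). Bcl2l1 stood at 386.9 to 651 (median 542.2) and 32909 to 88007 (median 43102). For both target genes the lowest Ter119+ library lay more than 10-fold above the highest Kit+ library.

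**Figure D1:**
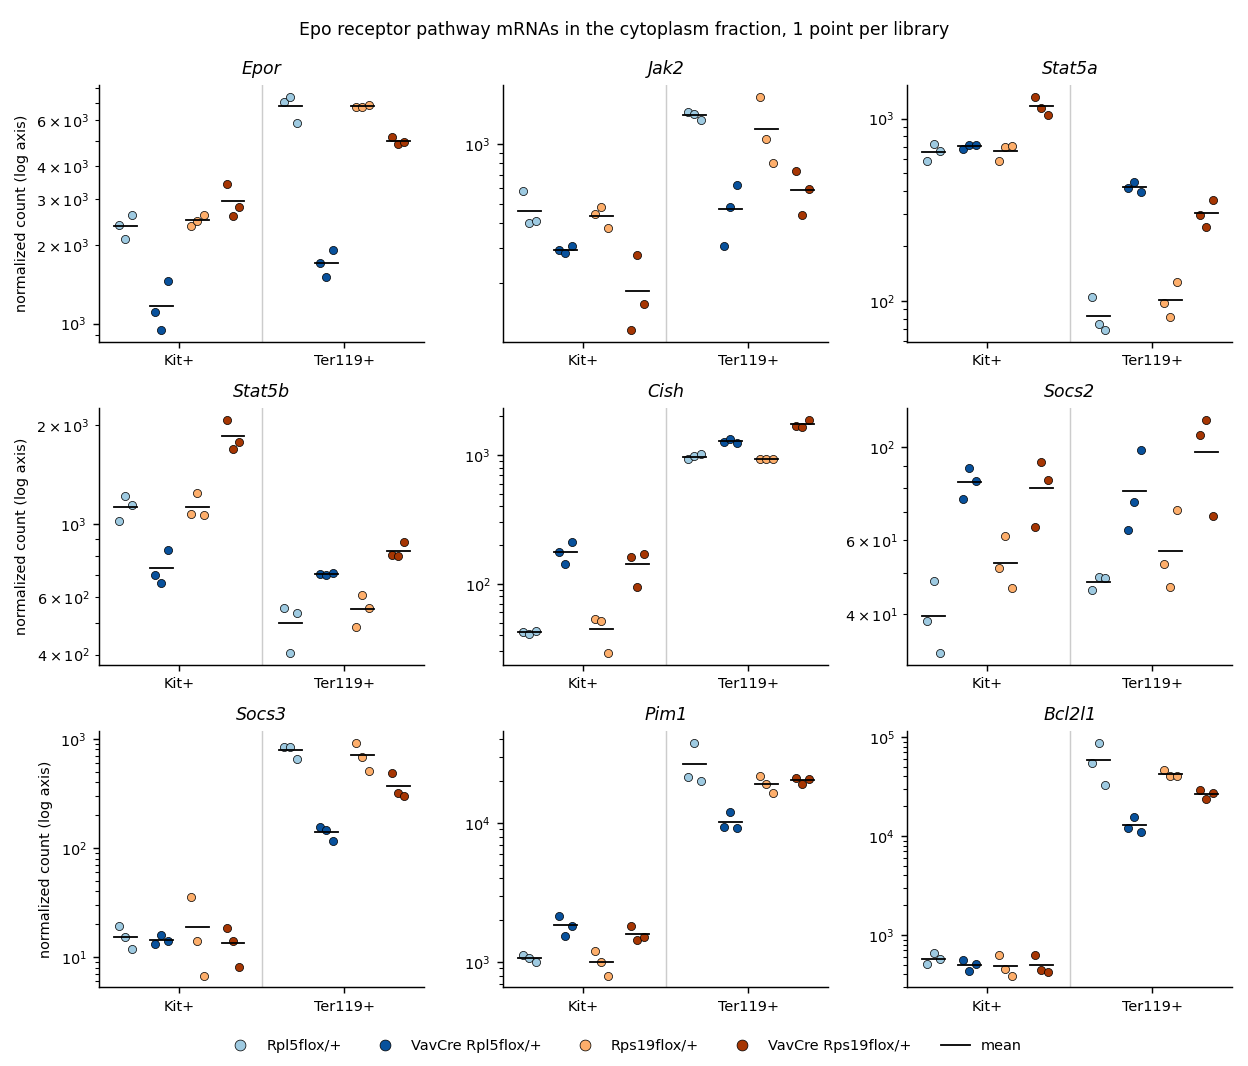
Normalized counts of the 9 members in the 24 cytoplasm libraries on log axes, 1 point per library, with Kit+ to the left and Ter119+ to the right of each panel and a bar at the mean of each group of 3. Bcl2l1, Pim1, Socs3 and Cish stand higher in all Ter119+ than in all Kit+ libraries, and Epor is lowest in the VavCre Rpl5flox/+ groups of each cell type.

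In Kit+ cytoplasm of the Rpl5 line, Epor and Stat5b fell with VavCre, by 2.02-fold and 1.54-fold, and Jak2 fell at the threshold, while Cish, Socs2 and Pim1 rose. Of the 9 members, 3 rose and 3 fell, against 37.2% of 10908 genes called in either direction (20.8% higher and 16.4% lower). The groups did not overlap for 6 members, nor for 51.0% of genes. Their median change was -0.05, against 0.03 over all genes.

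Epor stood at 2373, 2104 and 2597 normalized counts in the Rpl5flox/+ libraries and at 1105, 944.1 and 1459 in the VavCre Rpl5flox/+ libraries. All VavCre libraries were lower, and the fall was 2.02-fold (log2 -1.02 ± 0.14, limma adjusted p = 0.000114). Jak2 stood at 577.9, 399.3 and 407.4 and at 291.2, 282.8 and 308.1. Its groups did not overlap either, but the call was at the threshold (log2 -0.61 ± 0.23, limma adjusted p = 0.0493) and was lost without any 1 of the 6 libraries, with an adjusted p up to 0.2. Stat5b stood at 1018, 1214 and 1143 and at 700.2, 661.8 and 835, a 1.54-fold fall without overlap (limma adjusted p = 0.000812). Stat5a, at 583.5, 722.7 and 660.3 and at 680.4, 718.8 and 714.5, overlapped and did not pass (log2 0.11, limma adjusted p = 0.479).

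Cish stood at 42.7, 40.5 and 42.9 in the controls and at 176.4, 141.9 and 212.5 with VavCre, 4.21-fold higher in the mean (log2 1.76 ± 0.23, limma adjusted p = 6.11e-05). Socs2 stood at 38.4, 47.8 and 32.3 and at 75.3, 89.1 and 82.8, a 2.09-fold rise (limma adjusted p = 0.00146). Pim1 stood at 1131, 1069 and 1004 and at 2156, 1537 and 1817, a 1.72-fold rise (limma adjusted p = 0.00128). In each of these 3 genes every VavCre library lay above every control library. Socs3 (log2 -0.05, limma adjusted p = 0.911) and Bcl2l1 (log2 -0.21, limma adjusted p = 0.39) overlapped between groups and did not pass.

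In Kit+ cytoplasm of the Rps19 line, Cish, Socs2 and Pim1 also rose, and Jak2 fell, but both STAT5 genes rose and the receptor did not pass the test. Of the 9 members, 5 rose and 1 fell, against 53.7% of 10908 genes called (27.6% higher and 26.1% lower). For 6 members the libraries of the groups were apart, as for 60.9% of genes. The members' median change was 0.48, against 0.01 over all genes.

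Epor stood at 2371, 2474 and 2611 in the Rps19flox/+ libraries and at 3428, 2586 and 2785 with VavCre, with overlap (log2 0.23 ± 0.14, limma adjusted p = 0.186). Jak2 stood at 445.2, 479.9 and 378 and at 116.1, 276.1 and 156.2, a 2.38-fold fall without overlap (limma adjusted p = 0.000445). Stat5a rose 1.75-fold, from 584.6, 700.6 and 710.8 to 1316, 1143 and 1042 (limma adjusted p = 5.74e-05). Stat5b rose 1.64-fold, from 1075, 1239 and 1062 to 2078, 1696 and 1773 (limma adjusted p = 0.000149). The STAT5 libraries did not overlap between the groups.

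Cish rose 3.19-fold, from 53.3, 51.4 and 29.1 to 160.5, 94.8 and 171 (log2 1.41 ± 0.23, limma adjusted p = 0.000182), with no overlap. Pim1 rose 1.58-fold, from 1205, 1001 and 796.2 to 1805, 1437 and 1517 (limma adjusted p = 0.00176), also without overlap. Socs2, at 51.6, 61.4 and 46.1 and at 64.5, 91.9 and 83.3, rose 1.51-fold (limma adjusted p = 0.0267), which did not hold without control replicate 1 (adjusted p = 0.0681) or 3 (0.0925), or VavCre replicate 2 (0.101) or 3 (0.074). Socs3 (log2 -0.18, limma adjusted p = 0.633) and Bcl2l1 (log2 0.04, limma adjusted p = 0.872) did not pass.

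Markers of other cell types moved in the Kit+ captures of both lines. Of all genes, 20.8% were called higher and 16.4% lower there with Rpl5, and 27.6% and 26.1% with Rps19. In VavCre Rpl5flox/+ cytoplasm, 8 of 9 erythroid maturation genes fell (summed level 42291 to 50442 against 105648 to 137581 normalized counts) and 11 of 14 granulocyte and monocyte genes rose (59917 to 117843 against 30345 to 33941). In VavCre Rps19flox/+ cytoplasm, 3 of 9 erythroid maturation genes fell (59596 to 98186 against 97998 to 164983), while all 14 granulocyte and monocyte genes fell (4065 to 8563 against 20567 to 28924). All 7 B-lymphoid genes tested fell in each line, all 10 hepatocyte genes rose with Rpl5, and 6 of 7 megakaryocyte genes fell with Rps19. No marker of the erythroid and the granulocyte and monocyte lists was at 0 in every library of a cytoplasm group. Their part in the changes of the members was not tested, and fewer cells of a type and less RNA per cell cannot be told apart in bulk libraries.

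In Ter119+ cytoplasm of the libraries labelled VavCre Rpl5flox/+, the whole set was displaced: Epor, Jak2, Socs3, Pim1 and Bcl2l1 fell and Stat5a, Stat5b, Cish and Socs2 rose. All 9 members passed the test, in a comparison in which 65.5% of 10939 genes passed (35.3% higher and 30.1% lower), so a change was the rule there. For all 9 the libraries were apart, as for 71.7% of genes. Their median change was -1.32, against 0.16 over all genes.

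Epor fell 3.97-fold, from 7072, 7375 and 5875 normalized counts to 1702, 1503 and 1914 (log2 -1.98 ± 0.12, limma adjusted p = 3.72e-08). Jak2 fell 2.97-fold, from 1448, 1416 and 1315 to 306.4, 480.3 and 620.4 (limma adjusted p = 0.000199). Stat5a rose 5.06-fold, from 105.3, 74.8 and 69.3 to 418.5, 447.5 and 395.7 (limma adjusted p = 7.02e-07). The rise of Stat5b was smaller, 1.42-fold, from 556.1, 404.6 and 534.9 to 706.3, 699.6 and 710.8 (limma adjusted p = 0.00603). None of these groups overlapped.

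Cish rose 1.31-fold, from 931.9, 975.9 and 1015 to 1271, 1323 and 1239 (limma adjusted p = 0.00497). Socs3 fell 5.63-fold, from 851, 847.2 and 658 to 156.9, 146.4 and 115.4 (limma adjusted p = 1.08e-06). The inhibitors thus went in opposite directions, without overlap in either gene. Socs2 stood at 45.5, 49.0 and 48.7 and at 63.3, 73.8 and 98.5 (log2 0.57 ± 0.23, limma adjusted p = 0.0457). That call was lost with the replicate number as a block (adjusted p = 0.0707), and without any 1 of the libraries except VavCre replicate 1, with an adjusted p up to 0.177.

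Pim1 fell 2.59-fold, from 21458, 37950 and 20022 to 9436, 11959 and 9279 (limma adjusted p = 0.000112). Bcl2l1 fell 4.55-fold, from 54441, 88007 and 32909 to 12043, 15455 and 11045 (log2 -2.09 ± 0.27, limma adjusted p = 1.64e-05). Even the lowest control library of these 2 survival genes lay above the highest library labelled VavCre.

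In Ter119+ cytoplasm of the Rps19 line, Epor, Jak2 and Socs3 fell and Stat5a, Stat5b and Cish rose, while Pim1, Bcl2l1 and Socs2 did not pass the test. These 6 of 9 members compare with 25.8% of 10939 genes called (12.5% higher and 13.3% lower). The groups were apart for 7 members, against 43.1% of genes. The members' median change was 0.10, against -0.03 over all genes.

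Epor stood at 6743, 6742 and 6870 in the controls and at 5156, 4885 and 4959 with VavCre, a 1.36-fold fall with tight groups (log2 -0.44 ± 0.12, limma adjusted p = 0.0182). Jak2 fell 2.03-fold, from 1720, 1060 and 796.4 to 733.8, 439.2 and 592.3 (limma adjusted p = 0.0222). Both calls depended on single libraries. Epor did not pass without VavCre replicate 2 (adjusted p = 0.0641) or 3 (0.0627), nor Jak2 without VavCre replicate 2 (0.0972), VavCre replicate 3 (0.0591) or control replicate 1 (0.0948). Stat5a rose 2.97-fold, from 97.8, 81.3 and 126.4 to 295.3, 255.2 and 356.5 (limma adjusted p = 0.000259). Stat5b rose 1.5-fold, from 484.8, 609.5 and 554.2 to 801.8, 797.3 and 879.3 (limma adjusted p = 0.00863).

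Cish rose 1.86-fold, from 939.2, 931.3 and 937.9 to 1693, 1638 and 1881 (log2 0.88 ± 0.10, limma adjusted p = 0.00011). Socs3 fell 1.91-fold, from 924.7, 685.3 and 510 to 489, 320.5 and 300.7 (limma adjusted p = 0.0109), but not without VavCre replicate 3 (adjusted p = 0.0558). Cish and Socs3 were again opposed, without overlap. Socs2, at 52.5, 46.5 and 70.7 and at 106.5, 116.1 and 68.5, overlapped (limma adjusted p = 0.0583), and it passed without control replicate 3 (0.0357) or VavCre replicate 3 (0.0342). Pim1 stood at 21931, 19266 and 16455 and at 21185, 19240 and 20803 (limma adjusted p = 0.772), with full overlap. Bcl2l1 was lower in every VavCre library, at 29010, 23577 and 26937 against 46030, 40052 and 40173, yet did not pass (log2 -0.67 ± 0.27, limma adjusted p = 0.085). It passed when only these 2 groups entered the fit (adjusted p = 0.00371).

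**Figure D2:**
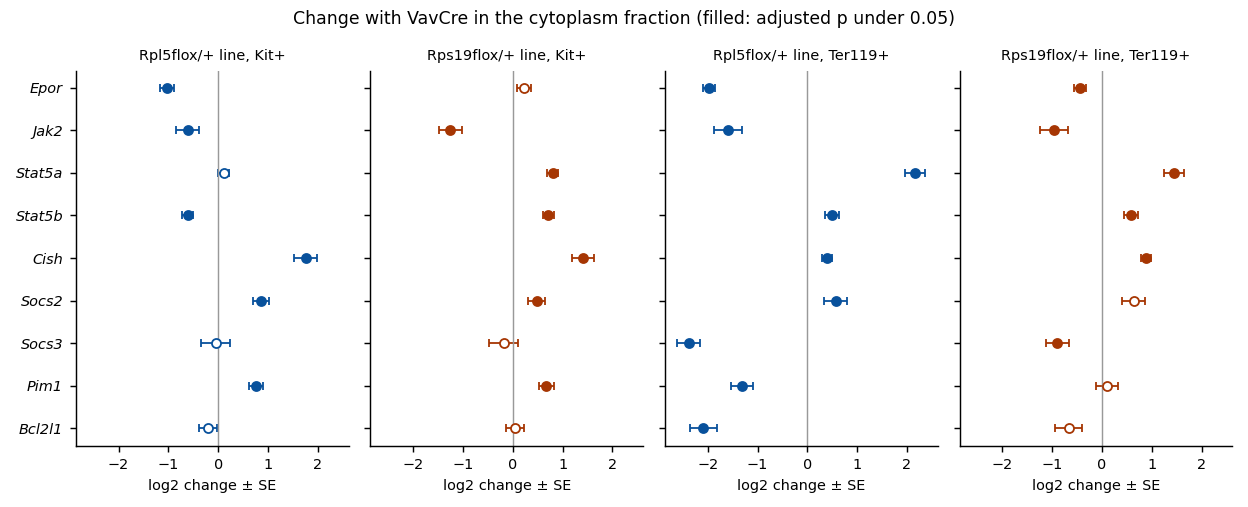
Change with VavCre in the cytoplasm fraction (log2, points, with standard errors as bars) for the 9 members, in 4 panels by line and cell type; filled points have a limma adjusted p under 0.05. Cish lies to the right of 0 in all 4 panels, from 0.39 to 1.76, and Jak2 to the left, from -1.59 to -0.61.

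Marker genes moved with these Ter119+ results too. Of all genes, 35.3% were called higher and 30.1% lower there with Rpl5, and 12.5% and 13.3% with Rps19. In the libraries labelled VavCre Rpl5flox/+, all 9 erythroid maturation genes fell (summed level 2227614 to 3796725 against 7656605 to 18674839), 12 of 14 granulocyte and monocyte genes rose (56037 to 114909 against 10484 to 20033), and all 7 stem and progenitor genes tested rose (2944 to 2990 against 320.2 to 688.2). The summed mast cell and basophil level (654.8 to 1141 against 63.2 to 132.1) and B-lymphoid level (252.2 to 269.6 against 88.5 to 181.5) were higher there as well. In the VavCre Rps19flox/+ libraries, 1 of 9 erythroid maturation genes fell (5663007 to 6096122 against 9324695 to 9906552), as did 10 of 14 granulocyte and monocyte genes (2351 to 4212 against 9914 to 20343) and 7 of 8 macrophage genes. Of 7 stem and progenitor genes tested there, 2 rose and 2 fell (777.7 to 1061 against 424.3 to 491.5). The B-lymphoid genes had 3 of 5 lower (7.26 to 21.4 against 103.2 to 214.4), with Ebf1 and Pax5 at 0 in all VavCre libraries, and the mast cell and basophil genes 3 of 5 lower (27.4 to 37.9 against 100.4 to 123.8). Their part in the members' changes was not tested.

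The changes were then compared with each other, each VavCre group against the controls of its own line. In Kit+ cytoplasm, the change with Rpl5 was below that with Rps19 for Epor (difference of log2 changes -1.25 ± 0.20, limma adjusted p = 0.000239), Stat5b (-1.32 ± 0.16, adjusted p = 3.15e-05) and Stat5a (-0.69 ± 0.15, adjusted p = 0.0025). That makes 3 of 9 members, a smaller share than the 48.2% of 10908 genes called (25.0% with the lower change for Rpl5), so nothing particular to the members is read from it. In Ter119+ cytoplasm, Epor (-1.54 ± 0.17, adjusted p = 4.27e-05), Cish (-0.49 ± 0.15, adjusted p = 0.0164), Socs3 (-1.48 ± 0.32, adjusted p = 0.00265), Pim1 (-1.41 ± 0.30, adjusted p = 0.00252) and Bcl2l1 (-1.42 ± 0.38, adjusted p = 0.00977) had the lower change with Rpl5. These 5 of 9 compare with 41.5% of 10939 genes (20.9% with the lower change for Rpl5). Stat5a, with 0.72, missed the threshold (adjusted p = 0.0515).

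Within the Rpl5 line, 8 of 9 members changed differently in Ter119+ and Kit+ cytoplasm, against 48.4% of 11018 genes. Pim1 rose in Kit+ and fell in Ter119+ (difference -2.08 ± 0.27, limma adjusted p = 2.96e-06), and Stat5b fell in Kit+ and rose in Ter119+ (1.11 ± 0.18, adjusted p = 2.69e-05). The remaining differences were -0.96 for Epor, -0.99 for Jak2, 2.07 for Stat5a, -1.37 for Cish, -2.32 for Socs3 and -1.88 for Bcl2l1. The Jak2 difference did not pass with the replicate number as a block (adjusted p = 0.0404 without it and 0.0546 with it). With 1 library left out it did not pass in 9 of 12 fits, with an adjusted p up to 0.135. Within the Rps19 line the difference passed for 1 of 9 members, Epor (-0.67 ± 0.19, adjusted p = 0.0251), against 12.3% of 11018 genes. That count was 0 without Kit+ control replicate 1, Kit+ VavCre replicate 1 or Ter119+ VavCre replicate 3, and 2 without Kit+ VavCre replicate 2, Ter119+ VavCre replicate 2 or Ter119+ control replicate 3.

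**Figure D3:**
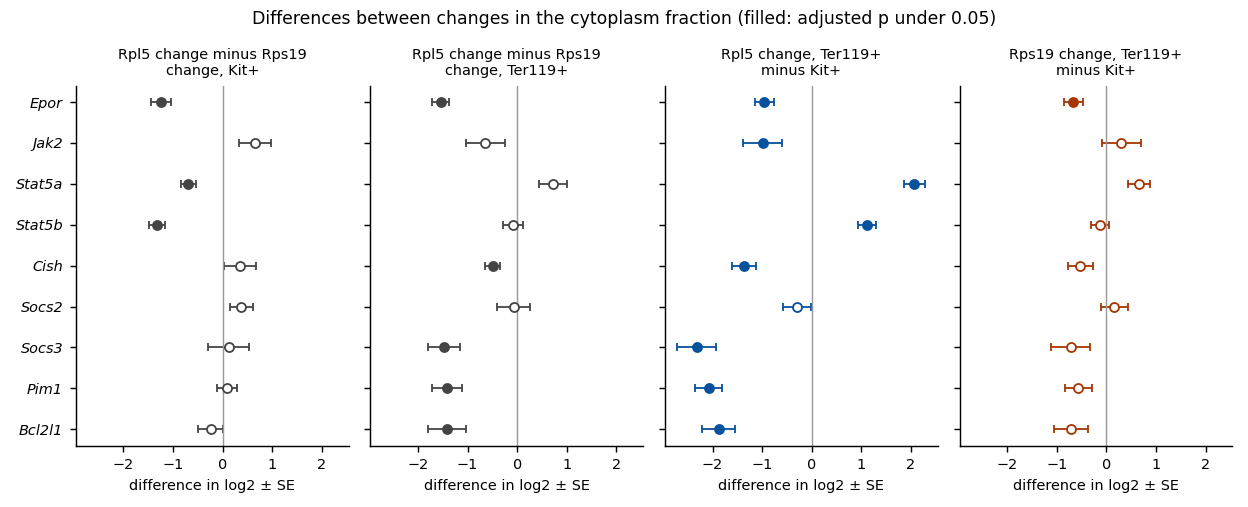
Differences between log2 changes in the cytoplasm fraction (points, with standard errors as bars) for the 9 members; the left pair of panels subtracts the Rps19 change from the Rpl5 change in each cell type, the right pair subtracts the Kit+ change from the Ter119+ change in each line, and filled points have a limma adjusted p under 0.05. Epor lies below 0 in all 4 panels, at -1.25, -1.54, -0.96 and -0.67.

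Ordered by mean level across the 8 cytoplasm groups, Epor was highest in Rps19flox/+ Ter119+ (6785) and Rpl5flox/+ Ter119+ (6774), which overlapped. VavCre Rps19flox/+ Ter119+ (5000) followed, apart from its neighbours. The next groups were VavCre Rps19flox/+ Kit+ (2933), Rps19flox/+ Kit+ (2485) and Rpl5flox/+ Kit+ (2358), each overlapping the next. The libraries labelled VavCre Rpl5flox/+ Ter119+ (1706) lay below every Kit+ group but 1, and VavCre Rpl5flox/+ Kit+ (1170) was lowest. For Stat5a the Kit+ groups were on top, from 1167 in VavCre Rps19flox/+ to 655.5 in Rpl5flox/+, and the VavCre Ter119+ groups (420.6 and 302.3) lay between them and the Ter119+ controls (101.8 and 83.1).

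In the polysome fraction of the controls, Epor, Jak2, Cish, Socs3, Pim1 and Bcl2l1 were higher and Stat5a was lower in Ter119+ than in Kit+ cells. These 7 of 9 members passed, against 23.3% of 10512 genes, and Stat5b and Socs2 did not. For 5 of the 9 the cell types were apart, against 17.3% of genes. Cish had 0 reads in all 6 Kit+ control polysome libraries and 53.5 to 905.9 normalized counts (13 to 250 reads) in the 5 Ter119+ libraries. The difference was at least 228-fold, against a floor of 3 reads over the 6 libraries, and at least 142-fold with Rps19flox/+ Kit+ replicate 2, the deepest of the Rps19flox/+ ones, left out of that floor. The call of Stat5a was lost without 1 of 6 libraries: Rpl5flox/+ Ter119+ replicate 1 (adjusted p = 0.109) or 2 (0.081), Rpl5flox/+ Kit+ replicate 2 (0.0591) or 3 (0.0584), Rps19flox/+ Ter119+ replicate 2 (0.0531) or Rps19flox/+ Kit+ replicate 3 (0.0583). That of Jak2 was lost without Rpl5flox/+ Ter119+ replicate 1 (adjusted p = 0.0974). At its cytoplasm level, Cish would have given 2.2 to 26.8 reads in these Kit+ polysome libraries. The floors cover counting error and not the spread between pools. They take each read as 1 molecule, though PCR copies were not marked with molecular identifiers.

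Polysome and cytoplasm libraries of the same pools were compared next. In Kit+ controls Cish was at least 19.9-fold higher in the cytoplasm (at least 12.4-fold with Rps19flox/+ polysome replicate 2 left out of the floor), and it passed together with Jak2 (log2 -1.25, limma adjusted p = 0.0499), Stat5b (-2.35, adjusted p = 0.0256) and Pim1 (-0.95, adjusted p = 0.0449). These 4 of 9 members were all lower on polysomes, where 43.7% of 10689 genes were called, 36.2% as lower, and the median gene differed by -1.32. The differences of Jak2 and Pim1 were smaller than that of the median gene. With 1 of the 6 pools left out, the count lay between 1 and 3. Cish was called each time and Jak2 never (adjusted p up to 0.162). Pim1 was called only without Rps19flox/+ pool 2, with an adjusted p up to 0.125 otherwise, and Stat5b only without an Rps19flox/+ pool, with one up to 0.0813 otherwise. Epor did not differ beyond its error (log2 0.01), and Bcl2l1 was higher on polysomes in 5 of 6 pools (log2 0.72, adjusted p = 0.065). In Ter119+ controls, 1 of 9 members passed, against 20.7% of 10588 genes: Pim1 was lower on polysomes in 5 of 5 pools (-0.43 ± 0.12, adjusted p = 0.0402). Without 1 pool the count was 0 (without Rpl5flox/+ pool 1 or 2, or Rps19flox/+ pool 1) or 4 (without Rps19flox/+ pool 2). With the libraries rescaled, that difference turned to 0.02 (adjusted p = 0.927), and the median gene differed by -0.62 in the deposited scaling. Bcl2l1 was higher on polysomes in 5 of 5 pools (0.40, adjusted p = 0.0809).

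On Kit+ polysomes, Cish had reads in all VavCre Rps19flox/+ libraries and in none of their controls. It stood at 0, 0 and 0 in the controls and at 74.7, 62.9 and 122.4 normalized counts with VavCre, which is at least 18.7-fold higher over a floor of 3 reads in the control group (limma adjusted p = 0.00136). That bound rests on control replicate 2, without which it is at least 3.57-fold. It was the 1 member of 9 to pass, against 9.86% of 10557 genes (6.19% higher), in a comparison whose median gene was 1.11 higher on the log2 scale. Groups were apart for 4 members (Cish, Stat5b, Socs3 and Bcl2l1), against 45.1% of genes. The VavCre values of Cish rested on 77 to 493 reads, in libraries of 10.8, 24.4 and 37.6 M reads, against controls of 1.01, 7.17 and 1.83 M. Having no reads in any of these controls was not particular to Cish. Spred2, Stat2 and Pias3, among other pathway genes, were at 0 there too and were called higher, with VavCre means of 239.4, 45.0 and 52.1. Stat5b, at 0, 390.3 and 317.6 and at 837.6, 925.1 and 1231, was higher in every VavCre library but did not pass (adjusted p = 0.117). Bcl2l1, at 955.4, 815.1 and 847 and at 358.7, 381.1 and 452.8, was lower in each (log2 -1.11, adjusted p = 0.113). Epor overlapped, at 2305, 2401 and 3309 and at 2513, 2828 and 3405. Without the libraries under 2 M reads, which leaves control replicate 2 as the lone control, assumed to vary like the other groups, 4 members passed: Cish, Stat5a, Stat5b and Bcl2l1. Stat5b joined Cish without control replicate 1, and Pim1 did so without control replicate 2. In the same comparison 5 of 14 granulocyte and monocyte genes were lower (3444 to 8837 against 42521 to 58596), and their part was not tested. The 1 VavCre Rpl5flox/+ Kit+ polysome library gave Epor at 430.7, against 3181, 1740 and 2063 in its controls, and Cish at 0; with 1 library there is no test.

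In Ter119+ polysomes of the libraries labelled VavCre Rpl5flox/+, 5 of 9 members fell, against 13.2% of 10614 genes called in either direction and 10.3% called lower, with a median gene at -1.0. Libraries did not overlap for 6 members, against 43.9% of genes. Epor stood at 8350 and 8881 in the controls and at 1571, 1399 and 1523 with VavCre (log2 -2.51 ± 0.35, limma adjusted p = 0.000589). Bcl2l1 stood at 65659 and 140111 and at 16328, 20241 and 9502 (-2.71 ± 0.34, adjusted p = 0.000337), and Pim1 at 15401 and 28928 and at 8965, 7775 and 2589 (-1.90 ± 0.47, adjusted p = 0.0189). These 3 genes fell in both fractions of these pools. Jak2 (adjusted p = 0.0129) and Socs3 (adjusted p = 0.0147) also fell, but each was at 0 in 2 of the 3 libraries. Cish did not pass after adjustment. It stood at 784.5 and 905.9 in the controls and at 0 to 310.5 (median 301.6) with VavCre, without overlap. That direction is opposite to its rise in the cytoplasm of these pools, but Cish did not pass the test of that difference within pools. The VavCre polysome libraries held 4.8, 19.1 and 1.02 M reads, against 15.4 and 39.8 M in the controls. With only these groups in the fit, the calls of Epor and Bcl2l1 were kept and the other 3 were lost. Without control replicate 1 there were 3 calls, and without control replicate 2 there were 2; each leaves 1 control library, assumed to vary like the other groups. All 9 erythroid maturation genes were lower there too (4522925 to 9083927 against 21547107 to 46453920), while 7 of 14 granulocyte and monocyte genes (102903 to 277277 against 14926 to 25328) and 1 of 10 hepatocyte genes (41709 to 156654 against 21848 to 29009) were higher. Their part was not tested.

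With VavCre Rps19flox/+, Ter119+ polysomes gave 0 of 9 members past the adjusted threshold in limma, 1 at an unadjusted p under 0.05 and 1 with voom on the recovered reads, against 0.801% of 10614 genes. Libraries did not overlap for 3 members (Cish, Stat5a and Bcl2l1), against 32.1% of genes. The member that passed with voom was Cish, at 53.5, 401.4 and 334.3 in the controls and 1567, 1209 and 2105 with VavCre, 6.19-fold higher without overlap (log2 2.90 ± 1.25, adjusted p = 0.335, and 0.0398 with voom). Epor, at 7256, 8604 and 4149 and at 7310, 6383 and 5138, overlapped. The change in polysome against cytoplasm level was tested within pools in 3 groups. No member passed in limma or with voom in VavCre Rps19flox/+ Kit+, Rps19flox/+ Ter119+ or Rpl5flox/+ Ter119+ pools, where 8.51%, 0.0184% and 0.00918% of genes did. At an unadjusted p under 0.05 the counts were 2, 0 and 3. Cish in the Kit+ pools came nearest (log2 2.29 ± 0.66, adjusted p = 0.0617), and it passed without the control pool 2. Without VavCre pool 2, 2 members passed in the Rpl5flox/+ Ter119+ comparison.

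**Figure D4:**
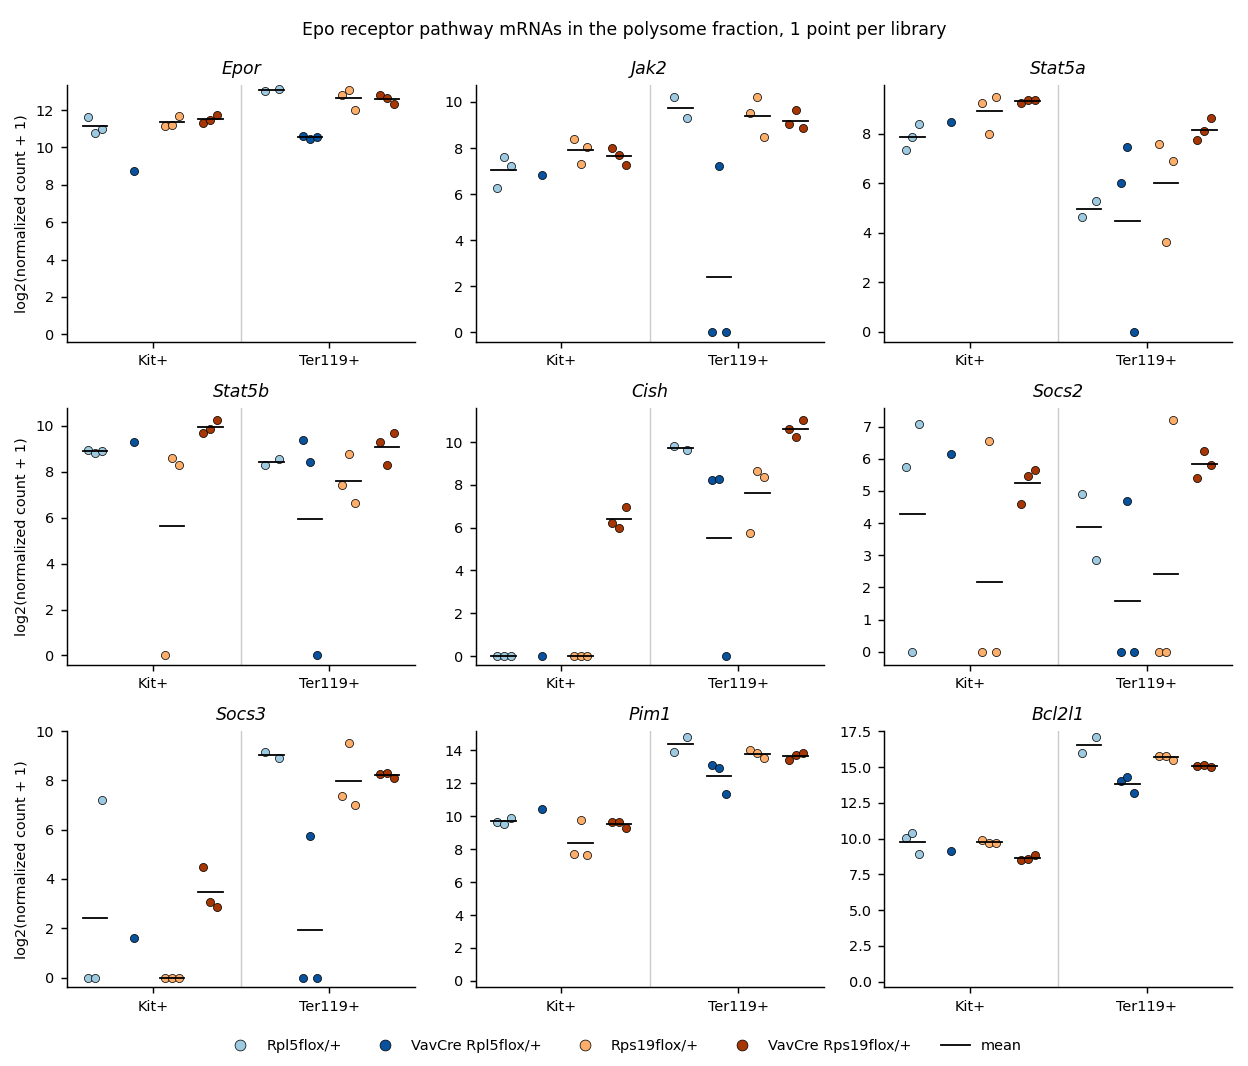
The 9 members in the 21 polysome libraries, as log2 of the normalized count plus 1, 1 point per library, with a bar at the mean of those log2 values in each group. Cish lies at 0 in all Kit+ libraries except the 3 of VavCre Rps19flox/+, and several members lie at 0 in single Ter119+ libraries.

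The rest of the pathway was followed through 86 symbols of adaptors, inhibitors, other JAK and STAT genes, AKT and MAPK genes, genes known to respond to erythropoietin or STAT5, and receptors of related cytokines. In Kit+ cytoplasm, 27 rose and 9 fell of 79 tested with Rpl5, and 28 rose and 27 fell of 79 with Rps19, with medians of 0.16 and 0.08 against 0.03 and 0.01 over all genes. Over all genes, 20.8% rose and 16.4% fell with Rpl5, and 27.6% and 26.1% with Rps19. In Ter119+ cytoplasm, 34 rose and 22 fell of 78 with Rpl5, and 13 rose and 16 fell of 78 with Rps19, with medians of 0.40 and -0.02 against 0.16 and -0.03, where 35.3% and 30.1% of all genes rose and fell with Rpl5, and 12.5% and 13.3% with Rps19. Of the 17 genes tested in Kit+ cytoplasm that respond to erythropoietin or STAT5, 8 rose in each line, while 3 fell with Rpl5 and 6 with Rps19. The AKT and MAPK genes had 0 higher and 1 lower of 10 with Rpl5 in limma, and 6 higher and 3 lower of 10 with Rps19, in Kit+ cytoplasm.

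Among the responsive genes, Ccnd2, a G1 cyclin, rose in all 4 cytoplasm comparisons, by 2.25-fold and 2.76-fold in Kit+ and by 11.2-fold and 6.44-fold in Ter119+, for Rpl5 and Rps19. Podxl, a sialomucin of the cell surface induced by erythropoietin, rose as well, with log2 changes of 1.02 (limma adjusted p = 0.000474) and 1.89 in Kit+ and of 2.62 and 2.55 in Ter119+. Osm, encoding the cytokine oncostatin M, a STAT5 target, rose 9-fold in VavCre Rpl5flox/+ Kit+ cytoplasm, from 17.7 ± 5.10 to 159.3 ± 34.1 normalized counts. Spry1, an inhibitor of MAPK signalling, rose 18.8-fold and 6.18-fold in Ter119+ cytoplasm. Tfrc, the transferrin receptor that supplies iron for haem, fell 4.51-fold in Ter119+ cytoplasm labelled VavCre Rpl5flox/+, from 48752 ± 2240 to 10819 ± 2750 normalized counts. Ccnd3, another cyclin gene of the list, went opposite to Ccnd2 in the same libraries. It fell 2.63-fold, from 22778 ± 1209 to 8650 ± 223, while Myc rose 4.5-fold. The pro-apoptotic gene Bcl2l11 fell 2.08-fold, and the adaptor gene Gab1 2.32-fold, in VavCre Rpl5flox/+ Kit+ cytoplasm. In VavCre Rps19flox/+ Kit+ cytoplasm the adaptor gene Gab2 rose 3.25-fold, and Pik3r1, a regulatory subunit of PI3 kinase, fell 2.61-fold.

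Across the 24 cytoplasm libraries, the genes whose deposited log2 values ran closest to those of each member, of 8945 compared, were found by Pearson's r. Bcl2l1 ran closest to Nfe2, an erythroid transcription factor gene (r = 0.998), and Pim1 to Grap2 (0.990). Epor ran closest to Iba57 (0.985), Jak2 to Itga4 (0.985), Stat5a to Fpgs (0.991), Stat5b to Gga2 (0.977) and Socs3 to H2-T24 (0.991). Cish ran closest to Abhd4 (0.977), but among the 12 Ter119+ libraries alone that value was 0.36. Among the 12 Kit+ libraries alone, r was 0.61 for Socs3, 0.65 for Bcl2l1 and 0.77 for Pim1 with these genes. It was 0.96 to 0.98 there for Epor, Jak2, Stat5a and Stat5b. Socs2 ran closest to Cdkn1a (0.826), and the value was 0.84 among the 12 Kit+ and 0.81 among the 12 Ter119+ libraries. The libraries share cell type and genotype, so these values are descriptions only.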

How the data were processed

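The deposited table holds log2 values made by the authors with a variance-stabilising transformation, as its values show; the mm10 build comes from the submitters' processing notes, while the sources used here name no aligner or counter. The values were inverted to normalized counts: 100% were whole reads times a size factor (relative tolerance 1e-06), so depth per library is known. Deposited log2 values were tested with limma 3.58.1 in R 4.3.3 (two-sided, trended variances, Benjamini-Hochberg over genes averaging 10 or more normalized counts in the libraries fitted, threshold 0.05), in 18 comparisons, with pools as a block between fractions.

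The members and gene lists were chosen with earlier results of these data known. Named genes are the members, Rpl5, Rps19 and Cdkn1a, up to 3 other pathway genes per direction by adjusted p in each comparison, and the closest genes by correlation. A gene named by this rule in 1 comparison is also given elsewhere. Same-numbered control and VavCre libraries deviated together in every pair in Rpl5 Kit+ cytoplasm (correlations 0.244 to 0.305) and Rpl5 Ter119+ cytoplasm (0.134 to 0.273), and blocked values are given for these where they change a call. The labels' batch number marks the pool. Alternatives were log2(normalized count + 1), other filters, rescaling, blocks, fewer groups, libraries left out and, chosen after seeing the data, voom on the recovered reads. The test was checked on simulated data. Sequences are from RefSeq.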

Additional observations from a re-analysis of the deposited data

Results flagged for a closer look

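A test of the difference itself separated the changes of 17 pairs. All use VavCre against the controls of the same line in cytoplasm, as differences of log2 changes. Between lines in Kit+ cells (Rpl5 minus Rps19), Epor differed by -1.25, Stat5a by -0.69 and Stat5b by -1.32. Between lines in Ter119+ cells, Epor differed by -1.54, Cish by -0.49, Socs3 by -1.48, Pim1 by -1.41 and Bcl2l1 by -1.42. Between cell types in the Rpl5 line (Ter119+ minus Kit+), Epor differed by -0.96, Jak2 by -0.99, Stat5a by 2.07, Stat5b by 1.11, Cish by -1.37, Socs3 by -2.32, Pim1 by -2.08 and Bcl2l1 by -1.88. Between cell types in the Rps19 line, Epor differed by -0.67. With 1 library left out, the Jak2 difference did not pass in 9 of 12 fits, and the Epor difference in the Rps19 line in 3 of 12. Comparisons within a line and between lines share libraries, so these are not independent of each other, and 13 of the 17 rest on the libraries labelled VavCre Rpl5flox/+ Ter119+, in which Rpl5 went against the label.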

How the results depend on the processing

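Of 2599 values of single members under the alternatives, 2421 kept their direction and side of the threshold, 115 lost and 62 gained a call, and 1 reversed: Pim1 on polysomes against cytoplasm in Ter119+ controls, at 0.02 with libraries rescaled. Counts of members called in the cytoplasm comparisons between genotypes moved by no more than 1.5 times. With 1 library left out they were 5 to 5 for Rpl5 Kit+ cytoplasm, 5 to 6 for Rps19 Kit+, 8 to 9 for Rpl5 Ter119+ and 4 to 7 for Rps19 Ter119+.

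Polysome counts moved more. For Rps19 Kit+ polysomes the count of 1 became 0 with a filter at 50, 2 with rescaling, 2 with only these groups, 4 without libraries under 2 M reads (which leaves 1 control library, assumed to vary like the other groups) and 2 with voom, and 1 to 2 with 1 library left out. For Rpl5 Ter119+ polysomes 5 became 3 with rescaling and 2 with only these groups, and 2 to 5 without 1 library, where 1 control is left if a control is dropped. For Rps19 Ter119+ polysomes 0 became 1 (Cish) with the replicate number as a block, with only these groups, without libraries under 2 M reads and with voom, and 0 to 0 without 1 library. The change with Rps19 in Ter119+ minus Kit+ went from 1 to 2 with log2(count + 1), a filter at 50, the replicate block or voom, and 0 to 2 without 1 library. Polysome against cytoplasm in Kit+ controls went from 4 to 1 with log2(count + 1), 2 with a filter at 50 and 1 to 3 without 1 library. In Ter119+ controls 1 became 0 without the pool block and 2 with voom, and 0 to 4 without 1 library. The change in polysome against cytoplasm level with Rps19 in Kit+ went from 0 to 1 (Cish) with log2(count + 1) or without the pool block, and 0 to 1 without 1 library. With Rps19 in Ter119+ it was 0 to 0, and with Rpl5 in Ter119+ 0 to 2, without 1 library. The cause of these moves was not tested. The planned edgeR and DESeq2 fits were not run; voom on the recovered reads was the count-based fit. Depth limits the polysome values: 14 of 36 member values in the 4 libraries under 2 M reads, and 13 of 153 in the other polysome libraries, rested on 0 reads.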

Other observations

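Receptors of related cytokines, many of which also signal through JAK and STAT proteins, were described across the lines as well. In Kit+ cytoplasm, 6 of 12 tested rose and 1 fell with Rpl5 (median log2 change 0.51), while 0 rose in limma and 8 of 12 fell with Rps19 (median -0.79), where 20.8% and 16.4% of all genes rose and fell with Rpl5 and 27.6% and 26.1% with Rps19. The change with Rpl5 was above that with Rps19 for 9 of 12 and below it for 0 in limma (median difference 1.43, against 0.04 over all genes), where 48.2% of genes differed in either direction. Il3ra, the alpha chain of the interleukin-3 receptor, had log2 changes of 1.23 (limma adjusted p = 0.00031) and -0.54 (adjusted p = 0.0296). Flt3, the receptor of a progenitor growth factor, fell 6.54-fold with Rps19, and had a log2 change of 0.16 with Rpl5 (adjusted p = 0.57); the difference between the lines was 2.30 ± 0.28 (adjusted p = 3.68e-05). In Ter119+ cytoplasm, 8 of 12 rose with Rpl5 (median 1.49), against 35.3% of all genes. With Rps19, 1 rose and 5 fell (median -0.17), against 12.5% and 13.3% of all genes. The difference between the lines was above 0 for 7 of 12 and below for 0 in limma (median 1.84, against 0.10 over all genes), where 41.5% of genes differed in either direction. The granulocyte and monocyte markers given with the members moved the same way in each of these comparisons, and their part in these values was not tested.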
